A study of Bos taurus with 20 samples.

Results

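The genes described here held a steady median messenger RNA level in bovine endometrium on days 0, 5 and 14 of the estrous cycle. They differed little among the animals sampled on days 0 and 14 but widely among those sampled on day 10. A gene ID was a member if 5 conditions were met on CPM plus 0.5, where CPM is a gene's count divided by the library total, times 1000000. Its day 0 median was under 1000, its highest value over the 20 libraries was at least 5, and its highest day 10 library was at least 6 times its lowest. Its highest library was also at most 2 times its lowest on day 0 and on day 14, and no 2 of the medians of days 0, 5 and 14 differed by 2-fold or more. Of 27607 gene IDs, 14139 met both level conditions, 8020 of these were steady on days 0, 5 and 14, and 258 of the steady IDs varied enough on day 10 to be members. The other 7762 steady IDs serve as the comparison throughout. The members were thus chosen by their spread on days 0, 10 and 14 and their medians on days 0, 5 and 14. These spreads and medians are described without a test, but days 0, 5 and 14 are the reference days in tests of day 18. Day 18 entered the rule only in that the highest of all 20 values had to reach 5, and 5 members reached it on day 18 alone.

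The endometrium, the lining of the uterus, was biopsied in virgin, non-lactating Holstein heifers aged at least 7 months. All had their cycles synchronized in the same way, with a GnRH analog, an intravaginal progesterone device and 2 doses of the prostaglandin analog cloprostenol at 96 and 120 hours. Animals were assigned at random to day 0 (estrus), 5, 10, 14 or 18, with 4 animals and 1 library for each per day, and poly(A) RNA was sequenced. The groups differ by day alone, and none was left without the hormones.

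After ovulation a corpus luteum forms on the ovary and secretes progesterone, which acts on the endometrium through most of the cycle. The corpus luteum regresses late in the cycle, and estrogen then rises towards the next estrus. The tissue holds a surface epithelium, glands, stroma, vessels and immune cells, and in cattle it is divided into gland-free caruncles, the sites where a placenta attaches, and the gland-bearing areas between them. A biopsy measures all of these cells together, so fewer cells of a type and less RNA per cell cannot be told apart. The count tables list IDs without names, and 0 of the IDs could be found in a reference list of 37063 cattle genes. What the members encode is therefore not described, the tissue could not be checked against its marker genes, no sequence is shown, and 4 IDs are printed.

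Library totals ranged from 21234000 to 26644679 counts. Day 10 replicate 3 and day 18 replicate 3 come from animals assigned to different days, and their counts were among the most alike of all 190 pairs of libraries. Their chi-square per degree of freedom was 41.07, the third lowest of the 190, against 27.35 to 563 in the 30 pairs within a day. Day 14 replicate 1 and day 18 replicate 2, also of different days, had a lower value, 39.69. With the other libraries of its own day, day 18 replicate 3 had values of 412 to 563, and day 10 replicate 3 had values of 242 to 398. The counts of day 10 replicate 3 and day 18 replicate 3 still differed by far more than sampling noise. Day 18 replicate 3 enters most of what follows, so the day 18 spread is given with and without it.

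The members covered a wide range of abundance. Their steady level, defined as the median of the 12 libraries of days 0, 5 and 14, was 19.2 CPM in the median member, with an upper quartile of 76.7 CPM and a highest value of 769 CPM. It lay below 1 CPM in 41 members, from 1 to 10 CPM in 54, from 10 to 100 CPM in 112 and at 100 CPM or more in 51. The median of the other steady IDs was 38.7 CPM. On day 10, the ratio of the highest to the lowest library had a median of 8.21, and its quartiles were 6.83 and 10.25; 12.4% of all IDs that met the level conditions reached the ratio of 6 required of members. The member closest to the limit had a ratio of 6.004 and the nearest steady ID outside it 5.996. Between 6 and 7 there were 76 members, and 95 steady IDs lay between 5 and 6, so the group has no natural edge. By the other conditions, the nearest member and the nearest excluded ID had ratios of 1.99 and 2.01 on day 0 and of 1.999 and 2.001 on day 14. Their largest folds between day medians were 1.99 and 2.001. The lowest peak among members was 5.06, against 4.96 in the nearest excluded ID, and the day 0 medians nearest to the limit were 899 and 2006.

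The day 10 variation lay in replicates 1 and 3. Measured against the steady level, 163 members were at least 2-fold lower and 48 at least 2-fold higher in replicate 1, where 8.72% of the other steady IDs were 2-fold away in either direction. In replicate 3, 125 were lower and 76 higher, against 6.69% of the other steady IDs. Replicates 2 and 4 stayed within 2-fold of the steady level for 248 and 238 of the 258 members, and 0.258% and 0.631% of the other steady IDs were outside it there. Low and high values were therefore deviations of 2 animals from a level that the other 2 shared with days 0, 5 and 14. Replicates 1 and 3 were both below replicates 2 and 4 in 161 members and both above them in 55, while 42 members had another order. These day 10 counts follow from how the members were chosen and support nothing further.

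**Figure D1:**
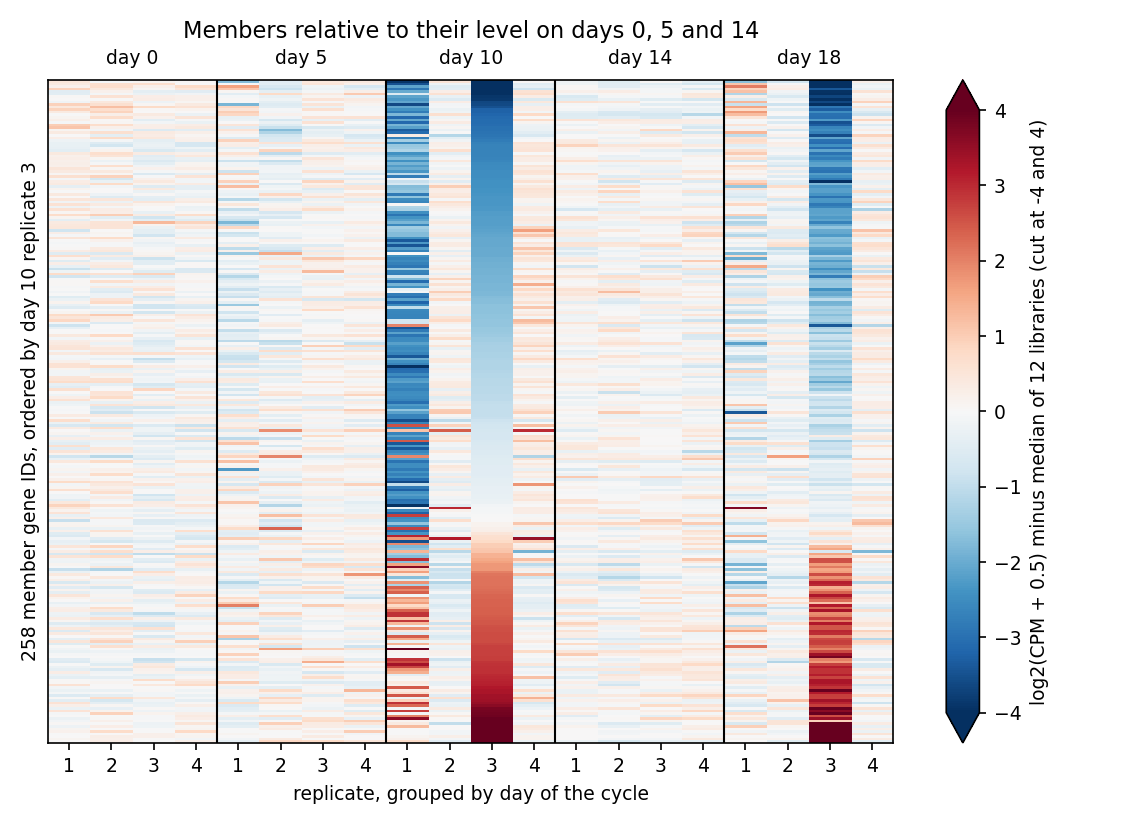
Heat map of the 258 members (rows, ordered by their value in day 10 replicate 3) in the 20 libraries (columns, 4 per day). Colour is log2(CPM + 0.5) minus the median of the 12 libraries of days 0, 5 and 14, with values beyond 4 in either direction drawn as 4. Day 10 replicates 1 and 3 and day 18 replicate 3 stand out, and day 18 replicate 3 repeats the order of day 10 replicate 3.

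Both departing day 10 animals were low for many of the same members, but not for all. The largest group, 111 members, was at least 2-fold below the steady level in both replicates 1 and 3. Its median log2 difference was −2.45 in replicate 1 and −2.05 in replicate 3, and its median steady level was 47.8 CPM. A second group of 46 members was low in replicate 1 (median −2.62) but within 2-fold in replicate 3, with a median steady level of 43.4 CPM. In 13 members replicate 3 was low and replicate 1 within 2-fold. Another 38 members were high in both replicates, by medians of 2.31 and 2.52, and 32 were high in replicate 3 alone, by a median of 3.07. The 2 groups of high members had median steady levels of 2.64 and 0.528 CPM. A level that low can hardly fall on a scale with 0.5 added, and the peak of at least 5 forces such a member to rise somewhere, so the rule itself ties low members to high departures. Of the remaining 18 members, 9 were high in replicate 1 alone, 7 went opposite ways in the pair and 2 were within 2-fold in both.

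On day 18 the members again varied widely, and most of that variation came from 1 animal. The ratio of the highest to the lowest library was at least 6 in 128 of 258 members (49.6%), where the same held for 1.19% of the other steady IDs and for 13.6% of all IDs that met the level conditions. Its median was 5.98 among members and 1.78 among the other steady IDs. At the other end, 34 members stayed within a ratio of 2 on day 18. Day 18 replicate 3 was the lowest library of its day in 64 of the 128 members and the highest in 61. Without it, 4 of the 258 members had a ratio of at least 6, and the median ratio was 1.797, against 1.525 in the other steady IDs. Leaving out replicate 1, 2 or 4 instead gave 108, 114 and 113 members. The 4 exceptions had replicate 1 as the highest or the lowest of the remaining 3 libraries. On day 5, whose spread the rule did not use either, 2 members reached a ratio of 6 (0.775%), against 0.193% of the other steady IDs and 4.19% of all IDs at the level conditions, and the median ratio was 1.71. A day 5 ratio of 2 or less was held by 173 members (67.05%), against 91.25% of the other steady IDs.

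**Figure D2:**
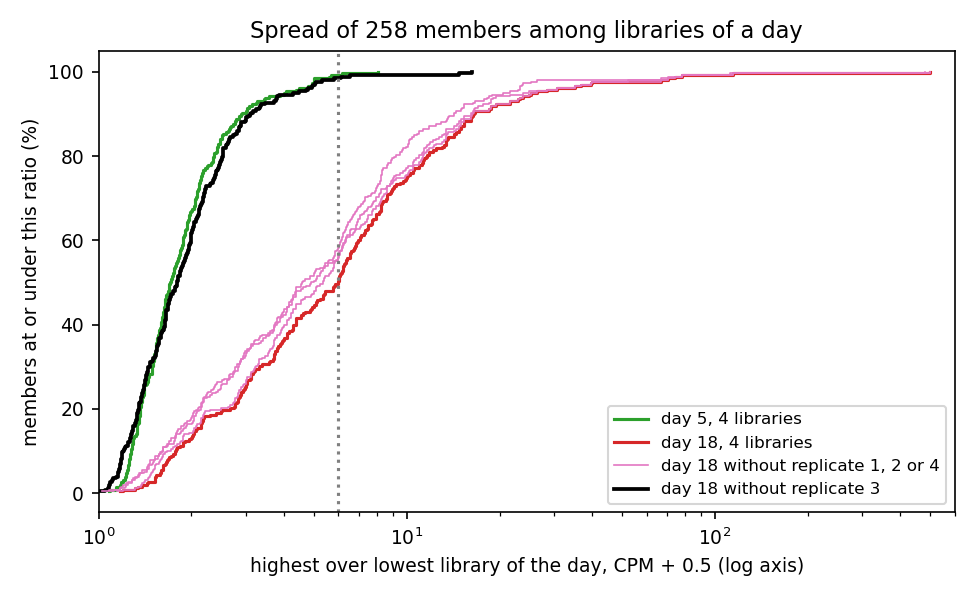
Cumulative share of the 258 members (vertical axis, percent) by the ratio of the highest to the lowest library of a day (horizontal log axis, CPM + 0.5); the dotted line marks a ratio of 6. With all 4 day 18 libraries 128 members lie at or beyond the line. Without replicate 3 the number is 4. That curve has a median of 1.797, against 1.711 for day 5, although it covers fewer libraries, which can only lower such a ratio.

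Library by library, day 18 looked like day 10 with 1 departing animal in place of 2. In day 18 replicate 3, 198 members (76.7%) were at least 2-fold from their steady level, 123 of them lower and 75 higher, against 8.83% of the other steady IDs. By at least 4-fold, 70 were lower and 60 higher. Replicates 2 and 4 had 5 and 8 such members at 2-fold, with 0.374% and 1.28% of the other steady IDs. Replicate 1 had 48 (18.6%, with 5.98% of the other steady IDs), and 6 of them differed by at least 4-fold. On day 5, replicates 1 to 4 had 23, 12, 3 and 4 such members, against 1.93%, 0.747%, 0.399% and 0.361% of the other steady IDs. The median log2 difference over all members was −0.88 in day 18 replicate 3, and the extremes were −4.52 and 8.49.

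**Figure D3:**
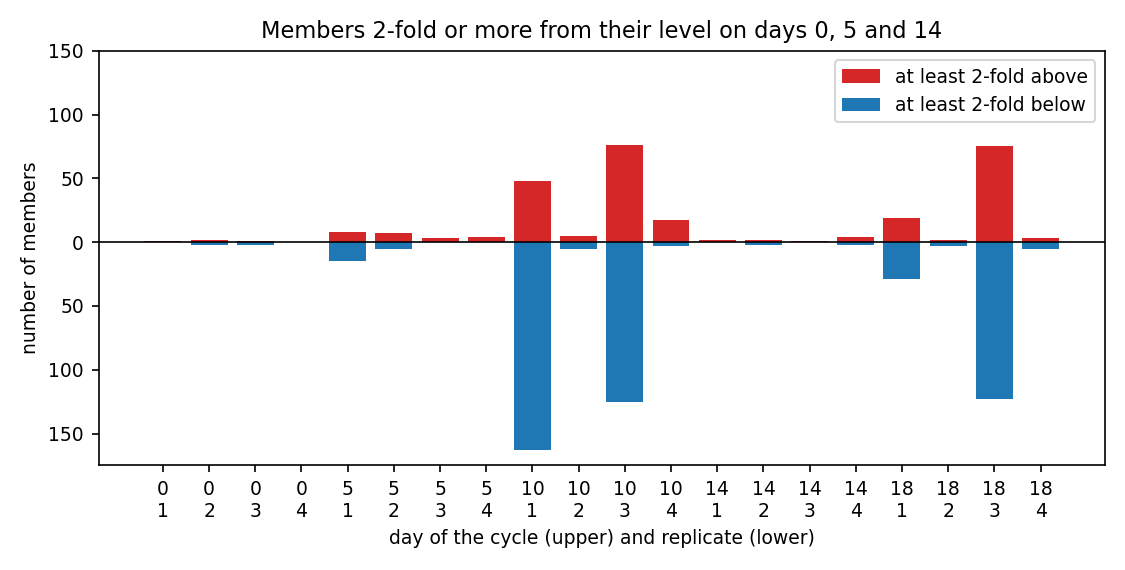
Number of members at least 2-fold above (red, upward) or below (blue, downward) their steady level, the median of the 12 libraries of days 0, 5 and 14, in each of the 20 libraries. Day 10 replicates 1 and 3 and day 18 replicate 3 have 211, 201 and 198 such members, and the next highest is day 18 replicate 1 with 48.

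Day 18 replicate 3 followed day 10 replicate 3 member by member rather than day 10 replicate 1. All 111 members low in both day 10 animals were split on day 18 into 103 that were low in replicate 3 and 8 within 2-fold. Of the 46 members low in day 10 replicate 1 alone, 42 were within 2-fold of the steady level in day 18 replicate 3, 3 were low and 1 was high. All 13 members low in day 10 replicate 3 alone were low in day 18 replicate 3. Of the members high in day 10 replicate 3, day 18 replicate 3 was also high in 37 of 38 where replicate 1 was high, in 31 of 32 where it was within 2-fold, and in 6 of 6 where it was low. The 5 members that reached the required peak on day 18 alone were all among these, and their high day 18 value follows from the rule. Without them, an alternative added after the data had been seen, the numbers were 36 of 37, 27 of 28 and 6 of 6.

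The sizes of the departures matched as well as their directions. The median log2 differences of these groups in day 18 replicate 3 were −2.07 for the 111 members low in both day 10 animals, −0.44 for the 46 low in replicate 1 alone, 2.59 for the 38 high in both and 3.21 for the 32 high in replicate 3 alone. The CPM values of day 10 replicate 3 and day 18 replicate 3 lay within 2-fold of each other for 247 of 258 members (95.7%), with a median absolute log2 difference of 0.28. For the other steady IDs that median was 0.152, and 99.07% of them were within 2-fold. With day 10 replicate 1 in place of replicate 3, 96 members (37.2%) were within 2-fold of day 18 replicate 3, against 90.04% of the other steady IDs. A high share was not particular to the replicate 3 pair. It was 92.25% of members for replicate 2 of days 10 and 18 and 93.02% for replicate 4, libraries in which most members stayed near the steady level.

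The steady level is a reference shared by both libraries, so the match was also measured without it, as the difference of each library from the median of the other 3 of its own day. On that measure 207 members were at least 2-fold away in day 10 replicate 3. Of the 131 that were low, 115 (87.8%) were at least 2-fold low in day 18 replicate 3, and of the 76 that were high, 73 (96.05%) were high; 0 went the opposite way. Without the 5 members whose peak lay on day 18 alone, 68 of 71 high members were high. Among the other steady IDs, 67.9% of 327 low IDs and 58.9% of 265 high IDs did the same, and 0 went the opposite way. Across the 258 members the differences had r = 0.957 for day 10 replicate 3 with day 18 replicate 3 and r = 0.599 for day 10 replicate 1 with day 18 replicate 3. For day 10 replicate 3 with day 18 replicates 1, 2 and 4, r was −0.2, −0.314 and −0.485. These correlations run across genes that share their libraries and their depth, and they only describe the libraries. The other steady IDs gave r = 0.764 for the first pair, so these 2 libraries also resembled each other outside the members.

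**Figure D4:**
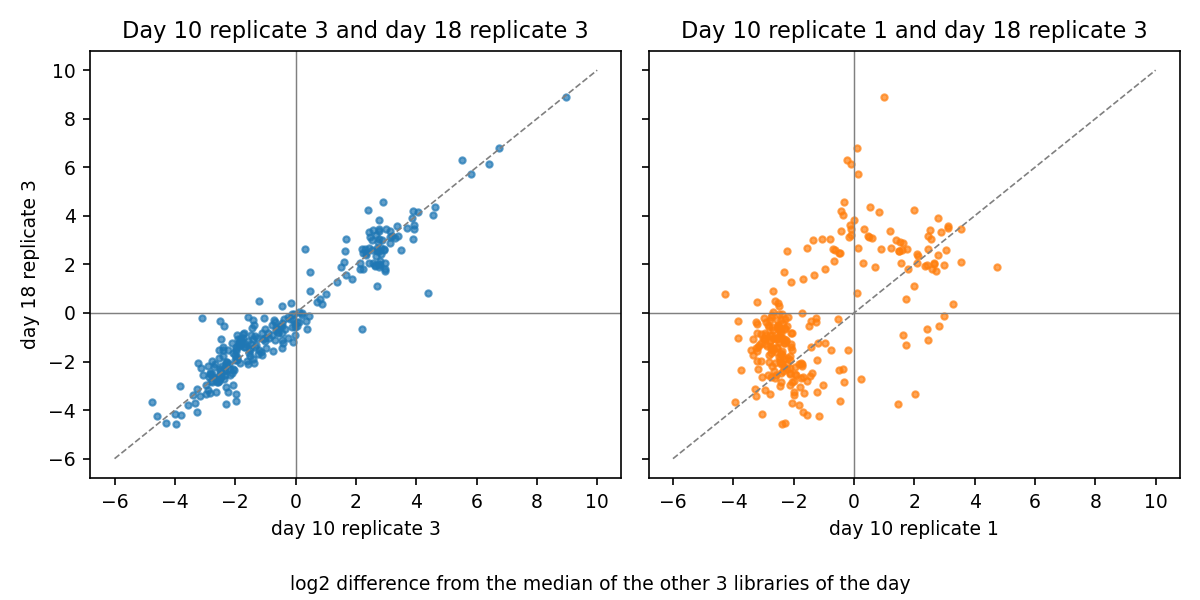
Each point is 1 of the 258 members; both axes are the log2 difference of a library from the median of the other 3 libraries of its day, and the dashed line marks equal differences. Points follow the line for day 10 replicate 3 against day 18 replicate 3 (r = 0.957) and scatter for day 10 replicate 1 (r = 0.599).

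The match was also seen when day 10 replicate 3 had no part in the day 10 ratio that chose the members. With that ratio taken over day 10 replicates 1, 2 and 4 alone, an alternative added after the data had been seen, 158 of the 258 members were chosen. The peak of at least 5 was still sought in all 20 libraries, day 10 replicate 3 included. In 101 of these (63.9%), day 18 replicate 3 was at least 2-fold from the steady level, and 51 (32.3%) had a ratio of at least 6 on day 18. For the other steady IDs these shares were 8.83% and 1.19%. Against the other libraries of their own day, 108 of the 158 were at least 2-fold away in day 10 replicate 3, and 94 of these (87%) were so in the same direction in day 18 replicate 3. Among the other steady IDs, 378 of 592 did the same. All 158 belong to the 258 members, so this is not an independent check.

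The 4 IDs with a mean of at least 5 CPM and the widest day 10 ratios, 2 that departed upwards and 2 that departed downwards, showed the pattern in single animals. ENSBTAG00000002430 had 1.42, 0.345, 485 and 0.465 CPM in day 10 replicates 1 to 4, a ratio of 575 with 0.5 added. On day 18 it had 0.659, 0.330, 414 and 0.361 CPM. Replicate 3 stood alone on both days, since the other 3 libraries lay within the range of days 0, 5 and 14, 0.203 to 1.54 CPM. Replicate 3 held 10398 counts on day 10 and 9235 on day 18, and every other library of the series held 38 or fewer. ENSBTAG00000015460 was at 0.129, 0, 62.8 and 0.0930 CPM on day 10 and at 0.0824, 0.0942, 66.1 and 0.181 CPM on day 18. Its counts in replicate 3 were 1345 and 1473, and no other library of the series held more than 5. The mean of at least 5 CPM ran over all 20 libraries, and this ID reached it only with both replicate 3 libraries. Its high day 18 value is therefore partly built into its choice.

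Downward departures were seen from a well-expressed level. ENSBTAG00000006631 had 2.89, 72.7, 1.45 and 52.2 CPM on day 10, so that replicates 1 and 3 lay far below replicates 2 and 4. On day 18 its values were 15.6, 28.8, 1.79 and 60.04 CPM, lowest again in replicate 3 and next lowest in replicate 1. On day 0 it had 69.5, 48.8, 54.1 and 52.3 CPM, on day 14 44.1, 35.8, 52.3 and 38.5 CPM, and on day 5 14.9, 37.02, 68.0 and 66.8 CPM, with replicate 1 the lowest. ENSBTAG00000011538 was at 92.4, 206, 8.07 and 222 CPM on day 10 and at 60.5, 112, 5.43 and 141 CPM on day 18. In both sets replicate 3 was lowest by far and replicate 1 next. Its lowest value on days 0, 5 and 14 was 100.0 CPM and its highest 281 CPM.

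**Figure D5:**
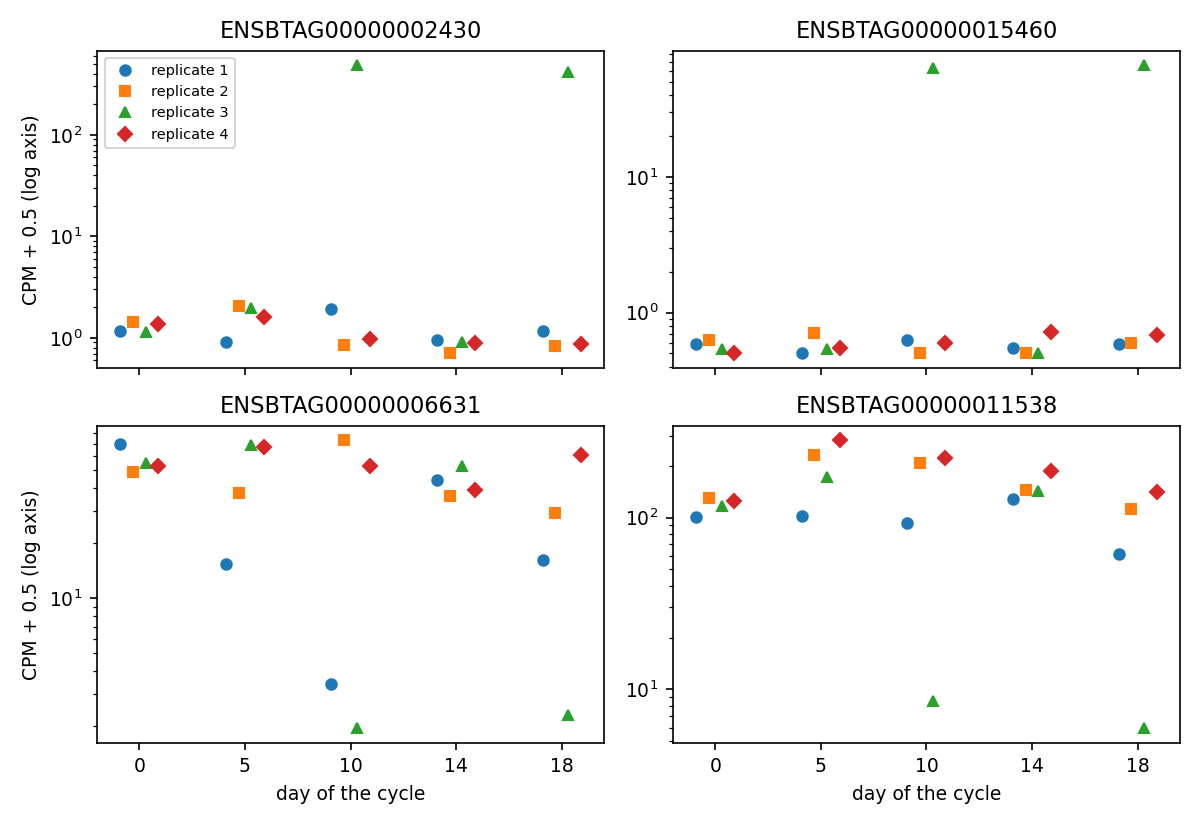
CPM + 0.5 (log axis) of 4 members in each library by day; symbols mark the replicates, each of which is 1 animal. Replicate 3 is the highest point on days 10 and 18 for ENSBTAG00000002430 and ENSBTAG00000015460 and the lowest on both days for ENSBTAG00000006631 and ENSBTAG00000011538.

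The members' summed level fell in the same libraries. Together they took 16976.7 to 21265.8 CPM in the day 0 libraries, 15920.4 to 20011.4 on day 5 and 17100.0 to 18434.5 on day 14. On day 10 replicates 1 and 3 were at 6302 and 11352 CPM, below the range of those 3 days, with replicates 2 and 4 at 18613 and 22254 CPM. On day 18 replicate 3 was at 11448 CPM, within 1 percent of its day 10 counterpart, and the others were at 16954 to 21822 CPM. The mean was 14630 ± 7167 CPM for day 10 and 17483 ± 4490 CPM for day 18, against 18023 ± 620 CPM for day 14 (SD over 4 libraries). In each of these libraries the share of counts in the 50 most abundant IDs was also above that of replicates 2 and 4 of its day. In day 18 replicate 3 it was above all day 0 libraries, and in day 10 replicates 1 and 3 it was below them. The 50 most abundant IDs held 16.4% and 18.9% of the counts in day 10 replicates 1 and 3 and 22.7% in day 18 replicate 3. The other day 10 libraries were at 11.5% and 12.1%. Day 18 replicate 1 was at 19.5% and replicates 2 and 4 were at 11.8% and 11.0%. The 4 day 0 libraries were at 19.7% to 21.0%. There 0 to 4 members were at least 2-fold from the steady level, but the rule required members to be steady on day 0. That count therefore says nothing about composition. The part of RNA composition in the members' departures was not tested.

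No member's mean level passed edgeR's test between day 18 and day 14, 0 or 5, although other tools called a few. With edgeR's quasi-likelihood test over 16947 IDs, of which 248 were members, 0 members were called from day 14 to day 18 (lowest adjusted p = 0.453), from day 18 to day 0 (0.0584) or from day 5 to day 18 (0.146). Over all tested IDs, 0.0% rose and 0.0% fell from day 14 to day 18, 1.75% rose and 1.07% fell from day 18 to day 0, and 0.0% rose and 0.0059% fell from day 5 to day 18. At an unadjusted p under 0.05, 22 members had a positive and 2 a negative change from day 14 to day 18 (8.87% and 0.806%, against 6.95% and 3.10% of all tested IDs). From day 18 to day 0 these were 7 and 22 members (2.82% and 8.87%, against 8.79% and 11.4%). From day 5 to day 18 they were 29 and 3 (11.7% and 1.21%, against 7.57% and 6.75%). The median log2 fold changes of the members were 0.07, 0.13 and 0.09, and those of all tested IDs 0.02, −0.06 and 0.04. ENSBTAG00000002430 shows how little a day mean says here: its fitted log2 fold change from day 14 to day 18 was 8.44 (SE 2.68) with an edgeR adjusted p of 0.453, and without day 18 replicate 3 it was 0.43 with an adjusted p of 0.961. The fitted change also fell to 3.19 with the replicate number as a block and to 1.20 with limma voom (adjusted p = 0.57 and 0.981). The steady days and the variable day 10 both enter the shared estimate of spread, so these tests are not free of the rule. Members were chosen to vary on day 10, which raises that estimate and makes calls harder to reach. The lack of calls is thus partly built in and does not show that the means were equal. DESeq2 called 0, 9 and 3 members in the 3 comparisons (0.0%, 3.63% and 1.21%), against 0.236%, 9.83% and 3.21% of all tested IDs. For limma voom these were 0, 2 and 1 members (0.0%, 0.806% and 0.403%), against 0.0%, 12.3% and 6.42%. Without day 18 replicate 1, edgeR called 8 members (3.19%) from day 18 to day 0, against 13.7% of all IDs, and without day 5 replicate 1 it called 1 (0.397%) from day 5 to day 18, against 2.43%. In each of these fits with a called member, the members' share was below that of all IDs. Each of these fits also includes day 10, so the lower share is partly built in as well.

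A larger spread on day 18 than on day 5, days whose spread the rule did not use, could not be shown for single members. A limma test of absolute deviations from the day mean called 0 of 248 members as more variable on day 18, with a lowest adjusted p of 0.132, and 0.0% of all 16947 IDs. The difference was above 0 in 223 members (89.9%) and in 79.7% of all tested IDs, and its median was 0.59 among members and 0.18 among all IDs. An unadjusted p under 0.05 was reached by 106 members (42.7%) and by 21.0% of all IDs for a larger day 18 spread. On simulated counts this test made no adjusted calls for large rises in spread and too many unadjusted ones without any, so neither count can be read as evidence. The simulation varied all 4 day 18 libraries independently and capped the other scatter among animals, so its setting differed from these data. With all 20 libraries in the fit, 42 members (16.9%) and 9.57% of all IDs passed, but on simulated counts that fit also made many false calls; without day 18 replicate 2 or 4, 32 and 35 members did (12.9% and 14.1%, against 3.41% and 4.45% of all IDs). With no filter on low counts 6 did (2.33%, against 1.75%).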

How the data were processed

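The deposited values are raw counts per Ensembl gene ID, 1 file per library and 27607 IDs in each, per the file headers and the values themselves. FastQC, STAR and edgeR are named without roles in the submitters' processing notes; for the genome build, the annotation, the counter and whether it used strand, the entry is: not given in the sources used here. Reads of overlapping, antisense or near-identical genes may therefore be mixed. Poly(A) RNA was captured and a stranded kit used, per the labels' protocols. Each animal gave 1 library, and groups and replicate numbers came from the sample titles.

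Members were found by the rule on CPM plus 0.5 from library totals. The members, lists and tests were chosen with earlier results of these data known. The 4 printed IDs are the 2 upward and 2 downward members with the widest day 10 ratio. Only members with a mean of at least 5 CPM over the 20 libraries were considered. Counts were fitted over all 20 libraries with edgeR 4.0.16 in R 4.3.3 (filterByExpr, TMM factors, robust quasi-likelihood), which kept 248 of the 258 members; its two-sided p-values were adjusted by Benjamini-Hochberg over 16947 IDs, with a threshold of 0.05. The other 10 members, among them ENSBTAG00000015460, had a median steady level of 0.0434 CPM. Spread was tested with limma 3.58.1 on absolute deviations of log2(CPM + 0.5) in the 8 libraries of days 5 and 18. Alternatives were RLE or no factors, other filters, DESeq2 1.42.0, limma voom, a replicate block, other pseudocounts, fewer libraries and each library left out. Both tests were tested on simulated data. Marker and pathway lists needed gene names and were not used. Figures were drawn with matplotlib 3.10.9.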

Additional observations from a re-analysis of the deposited data

Results flagged for a closer look

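Within-day values of the 4 printed IDs and of the members' summed level and median departure were checked for 1 library far from the other 3, in 30 groups of 4; 5 stood out, and chance gives about 1 in 20 groups. ENSBTAG00000002430 was far above the other libraries of its day in day 10 replicate 3, at 485.3 CPM, and in day 18 replicate 3, at 414.4 CPM. ENSBTAG00000015460 was far above in the same 2 libraries, at 62.78 and 66.1 CPM. The 2 day 10 values are tied to how the members were chosen. The day 18 value of ENSBTAG00000015460 is also tied to the choice of printed IDs. Without it the mean of that ID would have been under 5 CPM. The summed level of the members on day 14 was 17100.0 CPM in replicate 3, below the 18243.0 to 18434.5 CPM of the other 3 libraries.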

How the results depend on the processing

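From day 14 to day 18, 0 members were called under all 16 alternatives run, 14 of them with edgeR, 1 with DESeq2 and 1 with limma voom. From day 18 to day 0, DESeq2 called 9, limma voom 2, and leaving out each library gave 0 to 8, the highest without day 18 replicate 1; these are 3.63%, 0.806% and 3.19% of members, against 9.83%, 12.3% and 13.7% of all IDs. From day 5 to day 18 these were 3, 1 and 0 to 1, the highest without day 5 replicate 1 (1.21%, 0.403% and 0.397%, against 3.21%, 6.42% and 2.43%). With the replicate block, 0 members were called in each of the 3 comparisons and 0 in the spread test. Over the day pairs these tests compare, same-numbered libraries had correlations of their deviations from −0.374 to 0.356 and not every pair was above 0.1, so the block was not taken as a pairing. For days 10 and 18, which no such test compares, the members' departures had r = −0.056, 0.225, 0.957 and 0.517 for replicates 1 to 4. Pairs of different number ranged from −0.763 (day 10 replicate 2 with day 18 replicate 3) to 0.599 (day 10 replicate 1 with day 18 replicate 3). Day 10 replicate 2 with day 18 replicate 4 had 0.491, so the value for replicate 4 is not particular to its number. A larger day 18 spread was called in 42 members with all 20 libraries, in 6 without the low-count filter and in 0 to 35 with each library left out (16.9%, 2.33% and up to 14.1%, against 9.57%, 1.75% and up to 4.45% of all IDs). The 128 members with a day 18 ratio of at least 6 became 83 of 135 when a day 10 ratio of 8 chose the members, and 77 of the 183 members with all 5 day medians at 5 or more. Leaving out each day 18 library gave 4 to 114. Leaving day 10 replicate 1, 2, 3 or 4 out of the day 10 ratio that chose the members gave 113 of 137 (82.5%), 116 of 236 (49.2%), 51 of 158 (32.3%) and 104 of 184 (56.5%). The share of 49.6% thus rose by over 1.5 times without replicate 1 and dropped by as much without replicate 3. The match of 188 members between day 10 replicate 3 and day 18 replicate 3 was 117 at 4-fold. It was 94 when day 10 replicate 3 was left out of the day 10 ratio that chose the members. The number 2-fold from the steady level in day 18 replicate 3, 198, was then 101. With the peak of 5 required outside day 18, 253 members gave 123, 183 and 193 for these 3 counts. With TMM scaling 220 IDs were chosen, 194 of them members; 107 of them had a day 18 ratio of at least 6 and 145 matched. A pseudocount of 2 chose 202 IDs, 141 of them members, and 98 had such a ratio. Counts are fewest, and values least precise, for the 41 members with a steady level below 1 CPM.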
